A study of Sus scrofa with 15 samples.

Results

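The genes described encode 9 RNA-binding proteins that store maternal mRNA or regulate its translation in oocytes: *YBX2*, *ZAR1*, *ZAR1L*, *DAZL*, *LSM14A*, *LSM14B*, *PUM2*, *IGF2BP2* and *IGF2BP3*. They were chosen by symbol from the 22516 genes of the pig gene table, and each was found as 1 row. RNA sequencing was run on pools of 15 sow oocytes. GV oocytes were denuded straight from abattoir follicles without culture. MII oocytes had extruded a first polar body after in vitro maturation of their cumulus oocyte complexes, given as 44 h in the labels, and ‘damaged’ oocytes had been through the same culture and lacked a polar body. There were 5 libraries of each group, and GV replicate 3 was left out of the comparisons because its counts summed to 6400412, against 11961151 to 23568633 in the other 14 libraries. The ‘damaged’ class rests on the absence of a polar body alone, so it can hold oocytes stopped at different points, and each library is a mean over its pool.

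A fully grown oocyte makes little new RNA. It matures on mRNAs that were transcribed during growth and are kept stable, with short poly(A) tails, in complexes of RNA-binding proteins. When meiosis resumes, selected mRNAs gain longer tails and are translated while others are deadenylated and degraded. YBX2 is the germ cell Y-box protein that coats and stabilises much of this stored mRNA. ZAR1 and its relative ZAR1L are zinc-finger proteins of the oocyte that bind mRNA. DAZL is a germ cell protein that binds 3′ untranslated regions and regulates the translation of its targets during maturation. LSM14A and LSM14B are scaffolds of repressed mRNPs (complexes of mRNA and protein). PUM2 is a Pumilio repressor that recognises a short element in its targets, and IGF2BP2 and IGF2BP3 bind mRNAs and protect them from decay.

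Levels are given as CPM, counts scaled to a common library total with TMM factors, and fold changes as log2 values from a limma-voom fit of the 14 libraries. A gene is said to have risen or fallen at an FDR under 0.01 over all 13230 genes tested, and is called a DEG (differentially expressed gene) where the log2 value also passed 2 in size. The scaling matters here: with library sizes alone the median log2 value of all genes tested moved from -0.17 to -1.09 in MII versus GV and from -0.14 to -1.01 in ‘damaged’ versus GV, so both values are given. The TMM factors were 1.35 to 1.73 in GV and 0.794 to 0.922 in the cultured groups. Every GV library was uncultured and every MII and ‘damaged’ library cultured, so effects of culture and of maturation cannot be told apart. In pools of oocytes, fewer cells holding a transcript and less of it per cell cannot be told apart. The cDNA was primed with oligo-dT, so a change in poly(A) tail and a change in RNA amount cannot be told apart either. Rises and falls are therefore those of polyadenylated RNA.

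Of 15 columns in the gene table, 7 carried the name of another library, 6 of them among the 14 used, and the names crossed the groups. Each column was therefore given to the library whose own transcript file had the same total, and the results are repeated below for the 8 libraries whose names agreed (2 GV, 3 MII and 3 ‘damaged’). Oocyte markers (*GDF9*, *BMP15*, *ZP2*, *ZP3*, *ZP4*, *DDX4*, *NLRP5* and *FIGLA*) were present in all 14 libraries, with summed CPM of 9162 to 10630 in GV, 4430 to 6491 in MII and 5040 to 6867 in ‘damaged’ oocytes. By gene, mean CPM in GV, MII and ‘damaged’ oocytes was 1829, 87.4 and 104 for *ZP3* and 2009, 318 and 326 for *GDF9*. *FIGLA* was at 37.6, 4.17 and 4.45, *DDX4* at 36.1, 19.6 and 20.1 and *NLRP5* at 49.0, 18.5 and 19.2. *ZP2* was at 2282, 2125 and 2321, *BMP15* at 1431, 1203 and 1386 and *ZP4* at 2235, 1546 and 1416. The 9 granulosa and cumulus markers with a row, of 11 listed, summed to 1.28 to 3.74, 1.54 to 6.0 and 2.0 to 2.83 CPM, and none passed 34.6 counts in a library. Of these, *AMH* was at 0 in all MII libraries and at 0 to 0.239 CPM in ‘damaged’ ones, against 0.119 to 0.395 CPM in GV, while *PTGS2* was higher in every cultured library (1.17 to 1.87 CPM in MII and 1.20 to 2.10 in ‘damaged’ oocytes) than in GV (0.421 to 1.06). The 4 blood, immune and stroma markers summed to 3.97 to 5.99, 8.45 to 25.3 and 8.93 to 22.1 CPM, most of it from *PECAM1*. The part of these small sums in the results was not tested.

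Among the 9 genes, *YBX2* and *ZAR1* fell steeply from GV to both cultured groups, *DAZL* rose and *LSM14A* fell by less than 1 log2 unit, while *ZAR1L* and *IGF2BP3* stayed among the most abundant. In MII versus GV, 2 genes rose (*DAZL* and *PUM2*) and 3 fell (*YBX2*, *ZAR1* and *LSM14A*), against 28.2% of all genes tested that rose and 34.2% that fell. DEGs were *YBX2* and *ZAR1* on the lower side, where 17.1% of all genes were, and *DAZL* on the higher side, where 4.50% were. The GV and MII libraries did not overlap for 3 genes that were lower in MII (33.0% of all genes) and 1 that was higher (27.0%). In ‘damaged’ versus GV, *DAZL* rose and the same 3 genes fell, against 28.0% and 33.4% of all genes, and the DEGs were again *DAZL* (background 4.08%) and *YBX2* and *ZAR1* (background 16.4%). There the groups did not overlap for 4 genes that were lower (31.8% of all genes), *IGF2BP2* being the fourth, and 1 that was higher (26.6%). Both comparisons use the same GV libraries. With library sizes alone, *DAZL* was the only 1 of the 9 that rose in either comparison, 7 fell in MII and 8 in ‘damaged’ oocytes, against 57.5% and 56.0% of all genes, while 10.9% and 11.2% of all genes rose. On that scale the DEGs were *YBX2* and *ZAR1* in either comparison (29.4% and 27.8% of all genes) and none on the higher side (0.363% and 0.333%).

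**Figure D1:**
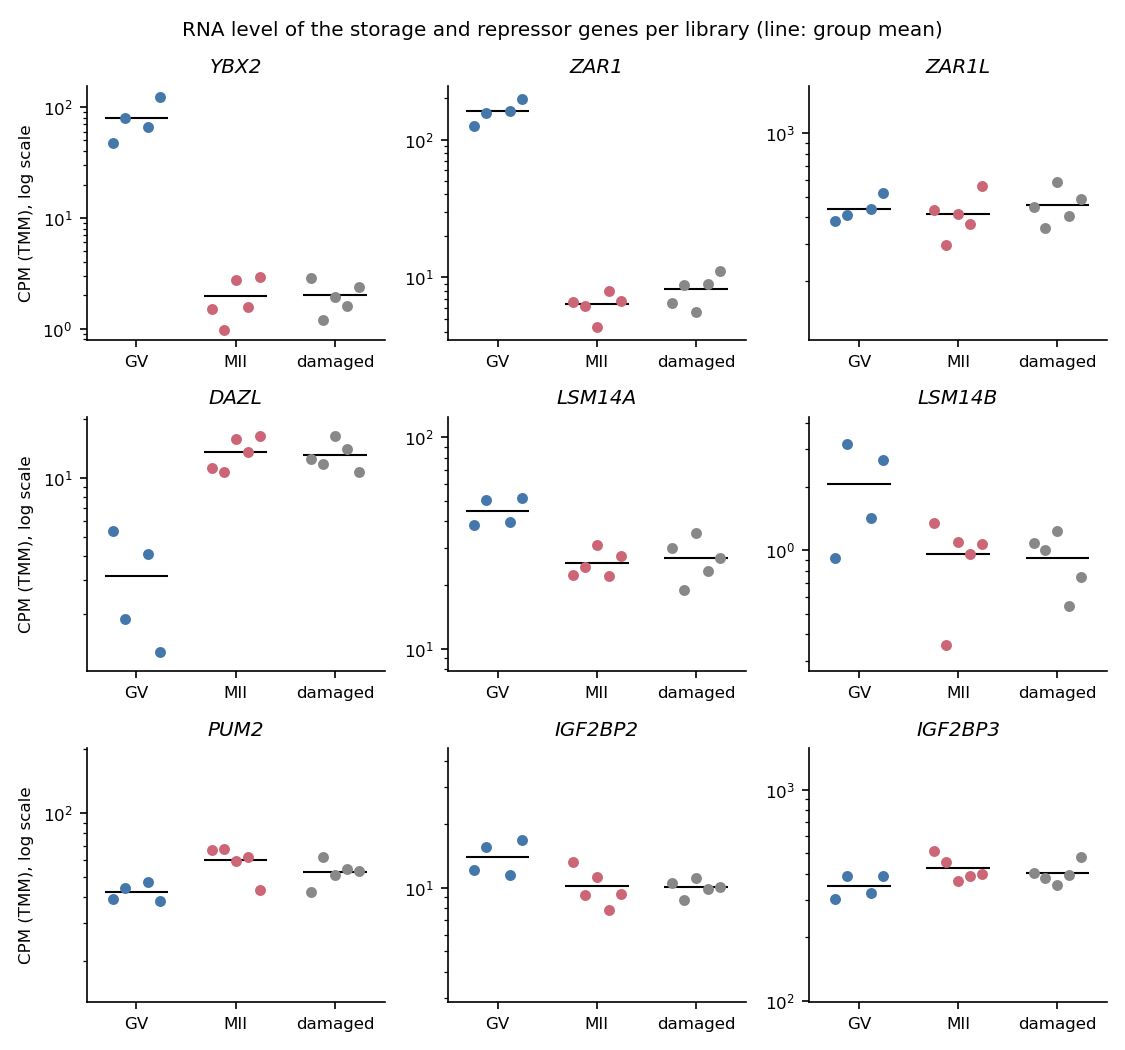
Level of the 9 genes in the 14 libraries, as CPM on the TMM scale on a log axis (the axis range differs between panels); points are libraries in replicate order within a group and the line is the group mean. The *YBX2* and *ZAR1* points of MII and ‘damaged’ oocytes all lie far under the GV points, the *DAZL* points lie above them, and those of *ZAR1L* and *IGF2BP3* overlap between groups.

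**Figure D2:**
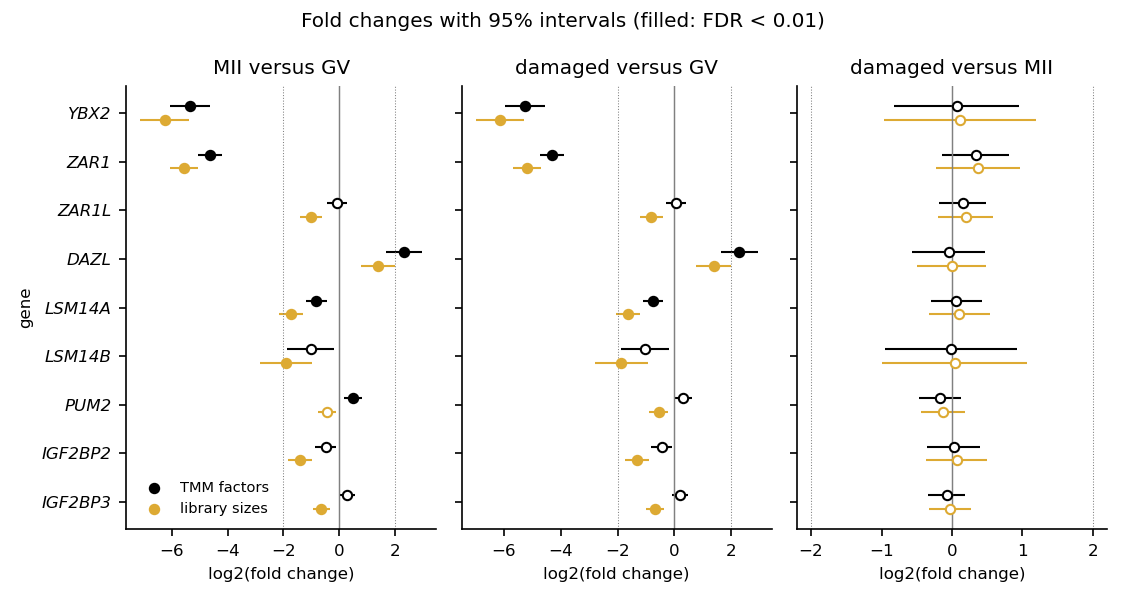
log2 fold changes of the 9 genes with 95% intervals from the limma-voom fit, for each comparison, with TMM factors (black) and with library sizes alone (yellow); filled points passed an FDR of 0.01, dotted lines mark a log2 value of 2 in size, and the right panel has its own, narrower axis. Library sizes moved the values of the first and second panels down by about the shift of all genes, and the intervals of all 9 genes in the right panel span 0.

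*YBX2* (ENSSSCG00000017938, chromosome 12, 52635383 to 52642443 in Sscrofa11.1) had the largest fall of the 9. In the GV libraries 1, 2, 4 and 5 it was at 47.5, 80.4, 65.7 and 124 CPM. In MII libraries 1 to 5 it was at 1.5, 0.976, 2.74, 1.57 and 2.95 CPM, and in ‘damaged’ libraries at 2.86, 1.20, 1.92, 1.58 and 2.39 CPM. The lowest GV library was thus far above the highest cultured library, and the cultured groups overlapped. *YBX2* was 40.5-fold lower in MII than in GV (log2 -5.34 ± 0.34 SE, FDR 7.94e-11) and 38.7-fold lower in ‘damaged’ oocytes (-5.27 ± 0.34, FDR 8.00e-11). Only 91 of the 13230 genes tested had a lower log2 value in MII versus GV. The counts in cultured libraries were 12.8 to 47.2, so the low levels carry more counting error than those of GV (929 to 2989 counts).

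*ZAR1* (ENSSSCG00000008824, chromosome 8, 38386520 to 38391618) followed the same pattern. It was at 125, 156, 162 and 196 CPM in the GV libraries, at 6.56, 6.16, 4.35, 7.97 and 6.70 CPM in MII and at 6.55, 8.72, 5.58, 8.93 and 11.14 CPM in ‘damaged’ oocytes. The GV libraries again stood apart from the cultured ones. *ZAR1* was 25.0-fold lower in MII (log2 -4.64 ± 0.20, FDR 1.55e-12) and 19.8-fold lower in ‘damaged’ oocytes (-4.31 ± 0.20, FDR 2.32e-12). Over the 14 libraries the log2 CPM of *ZAR1* and *YBX2* had a Pearson correlation of 0.97, which is a description that rests on the gap between GV and the cultured groups.

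*ZAR1L* (ENSSSCG00000034291, chromosome 11, 8795478 to 8805876), which belongs to the same small family, did not share this fall. Its levels were 383, 409, 440 and 519 CPM in GV, 433, 296, 416, 370 and 564 CPM in MII, and 449, 357, 591, 408 and 486 CPM in ‘damaged’ oocytes. The groups overlapped throughout. The log2 value was -0.10 in MII versus GV (95% interval -0.45 to 0.26, FDR 0.62) and 0.05 in ‘damaged’ versus GV (-0.30 to 0.41, FDR 0.79), but with library sizes alone *ZAR1L* fell, by -1.01 (FDR 9.65e-05) and -0.82 (FDR 0.000736), close to the median of all genes on that scale.

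The ratio of related genes within a library does not depend on how libraries are scaled, and it came from each library's own transcript file. The TPM of *ZAR1L* was 1.10 to 1.29 times that of *ZAR1* in GV, 19.5 to 40.2 times in MII and 17.2 to 44.4 times in ‘damaged’ oocytes. The ratio was 23.7-fold higher in MII than in GV and 20.6-fold higher in ‘damaged’ oocytes, each with an exact two-sided permutation p of 0.0159, the smallest that 5 against 4 libraries allow (adjusted p = 0.0340 over 15 tests). So nearly equal levels of the paired genes in GV became a large excess of *ZAR1L* in every cultured library. *YBX2* showed the opposite against *YBX1*, the broadly expressed Y-box protein: its TPM was 0.952 to 1.38 times that of *YBX1* in GV, 0.0150 to 0.0492 times in MII and 0.0172 to 0.0315 times in ‘damaged’ oocytes (exact permutation p = 0.0159 for each, adjusted p = 0.0340). *YBX1* itself was at 54.3 ± 15.1 CPM in GV (SD, n = 4), 51.6 ± 5.66 in MII and 59.0 ± 11.7 in ‘damaged’ oocytes (n = 5 each), with log2 values of -0.04 (FDR 0.85) and 0.14 (FDR 0.51). On library sizes alone *YBX1* fell by -0.95 (FDR 0.000662) and -0.73 (FDR 0.00520).

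**Figure D3:**
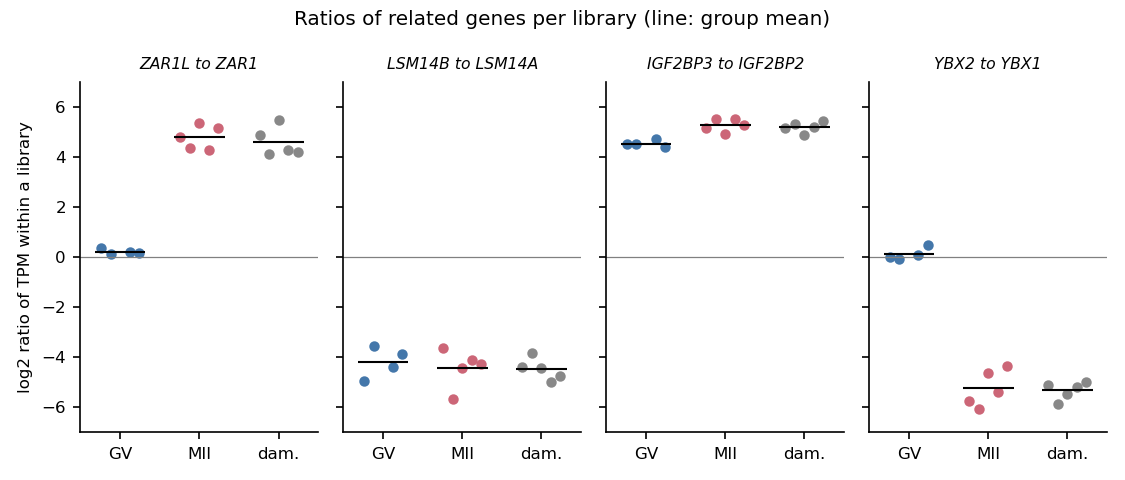
log2 ratio of the TPM of related genes within each of the 14 libraries; points are libraries, lines are group means and 0 marks equal TPM. *ZAR1L* to *ZAR1* goes from about 0 in GV to over 4 in each cultured library, *YBX2* to *YBX1* from about 0 to under -4, and *LSM14B* to *LSM14A* overlaps between groups.

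*DAZL* (ENSSSCG00000030671, chromosome 13, 3762896 to 3783848) was the only DEG of the 9 that was higher after culture. It was at 5.32, 1.89, 4.08 and 1.28 CPM in GV libraries 1, 2, 4 and 5, at 11.2, 10.8, 15.9, 13.5 and 16.4 CPM in MII and at 12.5, 11.8, 16.3, 14.1 and 10.8 CPM in ‘damaged’ oocytes. Every cultured library lay above every GV library. *DAZL* was 5.04-fold higher in MII (log2 2.33 ± 0.31, FDR 1.19e-06) and 4.87-fold higher in ‘damaged’ oocytes (2.28 ± 0.31, FDR 1.61e-06), and 267 of the 13230 genes had a higher value in MII versus GV. It rose with library sizes alone too, but by 1.38 (FDR 0.000274) and 1.38 (FDR 0.000290), so it was then no DEG. Without GV replicate 5, where *DAZL* was lowest, the log2 values were 1.95 and 1.91, still called at the FDR but under the DEG threshold. Within GV the libraries ordered by their TMM factor (1.35, 1.54, 1.63 and 1.73 for replicates 1, 4, 2 and 5) had falling *DAZL* and rising *YBX2*. The part of that factor in either result was not tested.

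*LSM14A* (ENSSSCG00000002869, chromosome 6, 43847882 to 43901697) fell moderately. It was at 38.4, 50.3, 39.5 and 51.6 CPM in GV, at 22.2, 24.4, 31.03, 22.0 and 27.5 CPM in MII and at 29.9, 18.9, 35.1, 23.3 and 27.0 CPM in ‘damaged’ oocytes. Both cultured groups lay under the GV libraries without overlap. The fall was 1.77-fold in MII (log2 -0.82 ± 0.17, FDR 0.000313) and 1.69-fold in ‘damaged’ oocytes (-0.76 ± 0.17, FDR 0.000641), and *LSM14A* also fell with library sizes alone (-1.73 and -1.63).

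*LSM14B* (ENSSSCG00000026052, chromosome 17, 61553953 to 61566504) was the rarest of the 9, with 18.1 to 64.2 counts per GV library and 4.70 to 20.2 per cultured library. Its levels were 0.923 to 3.19 CPM in GV, 0.358 to 1.34 in MII and 0.543 to 1.23 in ‘damaged’ oocytes, and GV replicate 1 lay inside the cultured range. It did not pass the test in MII (log2 -1.02 ± 0.40, FDR 0.0298) or ‘damaged’ oocytes (-1.03 ± 0.40, FDR 0.0279). Without GV replicate 1 it fell in both, by -1.31 (FDR 0.00387) and -1.32 (FDR 0.00359), and it fell with library sizes alone (-1.91 and -1.87). The TPM of *LSM14B* was 0.0321 to 0.0846 times that of *LSM14A* in GV, 0.0196 to 0.0806 times in MII and 0.0311 to 0.0706 times in ‘damaged’ oocytes, with exact permutation p of 0.70 and 0.40 against GV. The differences were -0.23 and -0.29 on the log2 scale, less than the SD within a group (0.61 in GV, 0.76 in MII and 0.45 in ‘damaged’ oocytes).

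*PUM2* (ENSSSCG00000008600, chromosome 3, 117857930 to 117965564) was at 39.1, 43.9, 47.2 and 38.3 CPM in GV, at 67.0, 67.2, 59.1, 61.7 and 43.0 CPM in MII and at 42.4, 62.0, 50.7, 54.4 and 52.9 CPM in ‘damaged’ oocytes. MII replicate 5 and ‘damaged’ replicate 1 were inside the GV range. *PUM2* rose in MII by 0.48 ± 0.15 (FDR 0.00833), but its sign turned with library sizes alone, to -0.43 (FDR 0.0184). The value in ‘damaged’ oocytes was 0.31 (95% interval -0.01 to 0.63, FDR 0.077), and with library sizes alone *PUM2* fell there by -0.56 (FDR 0.00362). The call in MII was kept in 6 of the 14 fits that left out a library. It was lost without GV replicate 1, 2 or 5, MII replicate 1, 2, 3 or 4, or ‘damaged’ replicate 4, at FDRs of 0.0108 to 0.0249. A filter of 10 CPM lost it by more (0.15, FDR 0.36), and gave -0.0026 (FDR 0.99) in ‘damaged’ oocytes.

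*IGF2BP3* (ENSSSCG00000036695, chromosome 9, 92104786 to 92272264) was abundant in every group. It was at 302, 388, 325 and 388 CPM in GV, 511, 454, 371, 390 and 398 CPM in MII and 403, 380, 353, 393 and 481 CPM in ‘damaged’ oocytes, and the groups overlapped. The log2 value was 0.27 in MII (95% interval -0.0045 to 0.55, FDR 0.072) and 0.20 in ‘damaged’ oocytes (-0.08 to 0.47, FDR 0.19), whereas with library sizes alone it fell, by -0.64 (FDR 0.000702) and -0.68 (FDR 0.000459). *IGF2BP2* (ENSSSCG00000011795, chromosome 13, 123485619 to 123650050) was far lower, at 12.2, 15.5, 11.4 and 16.8 CPM in GV, 13.3, 9.23, 11.3, 7.83 and 9.36 CPM in MII and 10.5, 8.78, 11.15, 9.86 and 10.1 CPM in ‘damaged’ oocytes. All ‘damaged’ libraries lay under the GV libraries. Even so it did not pass the test in MII (log2 -0.48 ± 0.18, FDR 0.0213) or in ‘damaged’ oocytes (-0.46 ± 0.18, FDR 0.0277), though it fell with library sizes alone (-1.39 and -1.32). Without MII replicate 1 it fell in MII (-0.57, FDR 0.00948).

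Within a library the TPM of *IGF2BP3* was 21.1 to 25.9 times that of *IGF2BP2* in GV, 29.9 to 45.3 times in MII and 28.8 to 43.3 times in ‘damaged’ oocytes. The ratio was 1.66-fold higher in MII than in GV and 1.57-fold higher in ‘damaged’ oocytes, and the groups did not overlap (exact permutation p = 0.0159 and adjusted p = 0.0340 for each). *IGF2BP1*, the remaining member of that family, had no count in the 14 libraries. In GV replicate 3 *IGF2BP2* stood at 48.8 CPM when all 15 libraries were scaled together, against 11.9 to 17.4 CPM in the other GV libraries, and the ratio there was 7.67. On the same scale that library had 161 CPM of *YBX2*, 247 of *ZAR1* and 0.715 of *DAZL*, each beyond the range of the other GV libraries (49.4 to 129, 130 to 203 and 1.32 to 5.53 CPM) on the side away from the cultured groups.

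The transcript makeup of *IGF2BP3*, as estimated by Kallisto, was not the same in GV and in the cultured groups. ENSSSCT00000043710.3 made up 32.4 to 45.6% of the gene's TPM in the GV libraries, 3.802 to 20.6% in MII and 7.07 to 23.5% in ‘damaged’ oocytes. ENSSSCT00000049852.3 was at 0 in the 4 GV libraries, while it ran from under 0.01% to 20.5% in MII and to 22.5% in ‘damaged’ oocytes, so libraries of 1 group differed widely. ENSSSCT00000054233.3 was at 29.8 ± 7.76% in GV (SD, n = 4), 44.1 ± 5.90% in MII and 42.4 ± 3.44% in ‘damaged’ oocytes (n = 5 each), and ENSSSCT00000042977.3 at 31.3 ± 2.83%, 33.8 ± 3.83% and 32.6 ± 4.97%. Their effective lengths are within 3790 to 3973 bases, and short single-end reads cannot always be told apart between such alike models, so the shares are given with no test. *DAZL* had 2 transcripts, of which the shorter, ENSSSCT00000022390.3, took 66.6 ± 14.7%, 71.6 ± 5.74% and 63.7 ± 4.15% of its TPM in GV, MII and ‘damaged’ oocytes. *IGF2BP2* was almost wholly 1 transcript, at a group mean of 98.3 to 99.0%, and *ZAR1*, *ZAR1L*, *LSM14A* and *PUM2* had 1 transcript with counts.

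**Figure D4:**
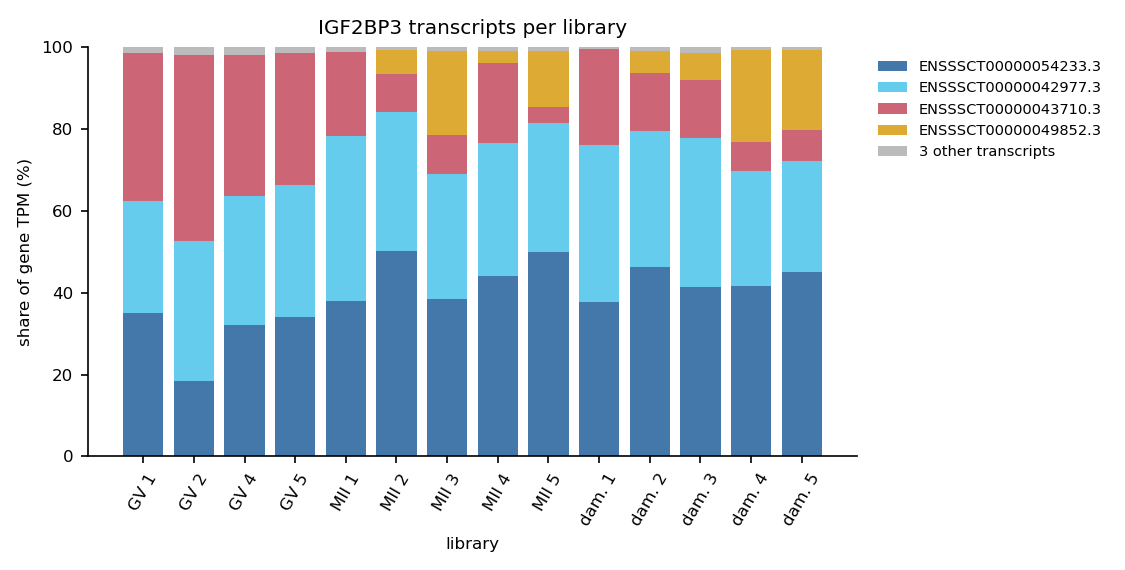
Share of each Ensembl transcript in the *IGF2BP3* TPM of each of the 14 libraries, in percent, stacked to 100. The share of ENSSSCT00000043710.3 is at least 32.4% in the GV libraries and at most 23.5% in the cultured ones, and ENSSSCT00000049852.3 is seen in cultured libraries at 0 to 22.5%.

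Compared per length, which allows genes to be set against each other, the order of the levels differed between GV and the cultured groups. In GV the mean TPM was highest for *ZAR1L* (383 ± 109, SD, n = 4), *ZAR1* (335 ± 110), *IGF2BP3* (217 ± 58.3) and *YBX2* (117 ± 65.3), neighbours whose ranges overlapped. *LSM14A* (35.5 ± 10.6) was apart from the genes on either side, and *PUM2* (13.5 ± 2.22), *IGF2BP2* (9.56 ± 3.13) and *DAZL* (8.23 ± 3.91) overlapped, above *LSM14B* (2.23 ± 1.34). In MII *ZAR1L* (173 ± 44.2, n = 5) and *IGF2BP3* (124 ± 13.3) overlapped at the top and *DAZL* (18.4 ± 4.38) came next, apart from both neighbours. *LSM14A* (9.57 ± 2.02), *PUM2* (9.14 ± 1.43) and *ZAR1* (6.22 ± 1.08) followed with overlap, then *IGF2BP2* (3.30 ± 0.75), *YBX2* (1.34 ± 0.64) and *LSM14B* (0.484 ± 0.19), of which *YBX2* and *LSM14B* overlapped. *ZAR1* thus moved from rank 2 to rank 6, *YBX2* from 4 to 8 and *DAZL* from 8 to 3. In ‘damaged’ oocytes the order was that of MII except that *ZAR1* (8.49 ± 2.93) and *PUM2* (8.37 ± 1.38), which overlapped, changed places. The TPM of the 9 genes together was 1122 ± 350 in GV, 346 ± 48.2 in MII and 372 ± 67.3 in ‘damaged’ oocytes, on a scale that moves with the rest of the library.

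The comparison of ‘damaged’ with MII oocytes asks whether oocytes without a polar body differ from those that extruded it. None of the 9 genes passed the test, and neither did any of the 13230 genes (0% in either direction by limma-voom, with 194 genes at an unadjusted p under 0.05). edgeR and DESeq2 called 0 genes as well, with 272 and 251 at an unadjusted p under 0.05. With replicate number as a block in limma-voom, 0 genes were called, 353 had an unadjusted p under 0.05 and the smallest FDR was 0.0236. The largest difference was in *ZAR1*, at a log2 value of 0.34 higher in ‘damaged’ oocytes (95% interval -0.15 to 0.82), followed by *PUM2* at -0.17 (-0.47 to 0.13) and *ZAR1L* at 0.15 (-0.19 to 0.49). The intervals were narrowest for *IGF2BP3* (-0.34 to 0.19), so a 1.5-fold difference lies outside that interval, and widest for the rarer *LSM14B* (-0.95 to 0.92) and *YBX2* (-0.82 to 0.95), where differences of more than 1.5-fold in either direction stay within it. The ratios of related genes gave exact permutation p of 0.56 to 0.88 between ‘damaged’ and MII oocytes, where 5 against 5 libraries allow 0.00794. For each of the 9 genes the CPM of the ‘damaged’ and MII libraries overlapped, as for nearly all genes. Of all genes, 0.174% were without overlap and higher in ‘damaged’ oocytes and 0.0983% lower.

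In the 8 libraries whose column names agreed, an alternative chosen after the files were seen, the log2 values in MII and ‘damaged’ versus GV were -5.25 and -5.49 for *YBX2*, -4.79 and -4.41 for *ZAR1* and 2.79 and 2.62 for *DAZL*, and all of these passed. *LSM14A* was at -0.74 (FDR 0.0163) and -0.65 (FDR 0.0308) and *PUM2* at 0.38 (FDR 0.15) and 0.34 (FDR 0.19), so neither was called with 2 GV libraries. The values of *ZAR1L* were -0.08 and 0.07. *LSM14B*, *IGF2BP2* and *IGF2BP3* were not called there (FDR 0.0310 to 0.49). Log2 ratios differed from GV by 4.75 and 4.47 for *ZAR1L* to *ZAR1* and by -5.05 and -5.48 for *YBX2* to *YBX1*. Those of *IGF2BP3* to *IGF2BP2* differed by 0.68 and 0.61. Each had an exact permutation p of 0.2 (adjusted p = 0.3), and 3 against 2 libraries allow none smaller. *LSM14B* to *LSM14A* differed by -0.14 and -0.61.

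Around these 9 genes stands a wider machinery of mRNA storage and repression, described with 42 further genes, of which 37 were tested. CPEB1 binds the cytoplasmic polyadenylation element and, with the eIF4E-binding protein 4E-T (*EIF4ENIF1*) and the oocyte cap-binding protein eIF4E1B, holds mRNAs silent. The helicase DDX6 and the PATL proteins act with LSM14 proteins in repressed mRNPs. In MII versus GV 8 of the 37 rose and 13 fell (28.2% and 34.2% of all genes), with a median log2 value of -0.15 against -0.17 over all genes tested, so the list as a whole lay near the background. DEGs were 7 on the lower side and 0 on the higher side (17.1% and 4.50% of all genes). In ‘damaged’ versus GV 6 rose and 12 fell (28.0% and 33.4% of all genes), with a median of -0.05 against -0.14, and 5 were DEGs on the lower side and 0 on the higher side (16.4% and 4.08% of all genes). With library sizes alone 1 rose and 24 fell in each comparison, where 10.9% of all genes rose and 57.5% fell in MII and 11.2% and 56.0% in ‘damaged’ oocytes.

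*CPEB1*, *EIF4ENIF1* and *EIF4E1B* did not pass the test with TMM factors. *CPEB1* was at 106 ± 5.19 CPM in GV, 85.1 ± 16.4 in MII and 94.6 ± 28.6 in ‘damaged’ oocytes (mean ± SD here and below, n = 4, 5 and 5), with log2 values of -0.34 and -0.21 versus GV. *EIF4ENIF1* was at 196 ± 39.4, 231 ± 54.1 and 195 ± 20.2 CPM (0.22 and 0.01). *EIF4E1B* was at 14.9 ± 1.30, 9.92 ± 2.19 and 13.2 ± 4.98 CPM (-0.61, FDR 0.0299, and -0.25). On library sizes alone all of these fell, *CPEB1* by -1.25 and -1.09, *EIF4ENIF1* by -0.69 and -0.86 and *EIF4E1B* by -1.53 and -1.12. With a filter of 10 CPM *CPEB1* (-0.67, FDR 0.00320) and *EIF4E1B* (-0.94, FDR 0.00167) fell in MII, and *EIF4E1B* did so with the replicate block too (-0.74, FDR 0.00439). That filter also gave lower values in MII than the main fit for *PUM2* (0.15) and *IGF2BP3* (-0.06). The other CPEB genes were higher in MII. *CPEB2* rose, from 17.8 ± 6.84 CPM to 44.0 ± 8.84 in MII (1.34, FDR 3.23e-05) and 46.9 ± 11.6 in ‘damaged’ oocytes (1.42, FDR 1.66e-05), but not with library sizes alone (0.44 and 0.56). *CPEB3* and *CPEB4*, named after their values were seen, rose in MII as well, by 0.67 (FDR 0.00463) and 1.21 (FDR 5.98e-07). In ‘damaged’ oocytes *CPEB4* rose (1.19, FDR 8.32e-07) and *CPEB3* did not pass (0.60, FDR 0.0107), and neither was called with library sizes alone (-0.24 and -0.27 for *CPEB3*, 0.30 and 0.32 for *CPEB4*). *DDX6* was at 28.9 ± 10.1, 40.5 ± 5.93 and 37.9 ± 4.97 CPM (0.56, FDR 0.0192, and 0.47, FDR 0.0486), with the sign turned on library sizes alone (-0.36 and -0.41). It rose in MII with all 5 GV libraries (0.70, FDR 0.00868), without GV replicate 1 (0.75, FDR 0.00298) and without GV replicate 4 (0.69, FDR 0.00908), and in ‘damaged’ oocytes without GV replicate 1 (0.65, FDR 0.00807).

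The largest falls of the list in MII were those of *RBPMS2*, an RNA-binding protein with an RRM domain, *YBX3*, a further Y-box protein, and *PATL2*, an oocyte relative of the P-body protein PATL1. *RBPMS2* went from 53.8 ± 18.6 CPM in GV to 3.38 ± 0.652 in MII (log2 -3.93, FDR 2.69e-10) and 4.65 ± 1.22 in ‘damaged’ oocytes (-3.49, FDR 6.77e-10). *YBX3* went from 44.2 ± 12.1 to 5.75 ± 1.28 (-2.95, FDR 5.85e-10) and 5.53 ± 1.38 CPM (-2.99, FDR 5.22e-10). *PATL2* went from 283 ± 33.0 to 41.0 ± 8.87 (-2.81, FDR 5.15e-11) and 39.7 ± 10.4 CPM (-2.86, FDR 4.39e-11). These 3 fell on library sizes alone too. The largest rises were those of *BICC1*, a KH-domain repressor of translation, *CPEB2* (above) and *TIA1*, a stress granule protein. *BICC1* went from 53.5 ± 5.47 CPM to 208 ± 30.3 in MII (1.96, FDR 2.00e-10) and 205 ± 16.6 in ‘damaged’ oocytes (1.94, FDR 2.29e-10), and was the gene of the list that rose on library sizes alone as well (1.04 and 1.07). *TIA1* was low, from 1.55 ± 0.561 to 3.57 ± 1.31 CPM in MII (1.26, FDR 0.00298), and at 3.19 ± 1.22 CPM in ‘damaged’ oocytes it did not pass (1.04, FDR 0.0120). Both calls of *TIA1* moved with the processing. That in MII was lost without GV replicate 5 (FDR 0.0165), without MII replicate 4 (FDR 0.0123) and with library sizes alone (0.32, FDR 0.39). In ‘damaged’ oocytes it passed with edgeR, DESeq2, all 5 GV libraries and summed estimated counts, and without GV replicate 1, MII replicate 4 or ‘damaged’ replicate 1 (0.79 to 1.26, FDR 0.00243 to 0.00966). With MII and ‘damaged’ oocytes joined as 1 group against GV, *TIA1* rose by 1.15 (FDR 0.00207), which is not a value of ‘damaged’ oocytes alone.

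**Figure D5:**
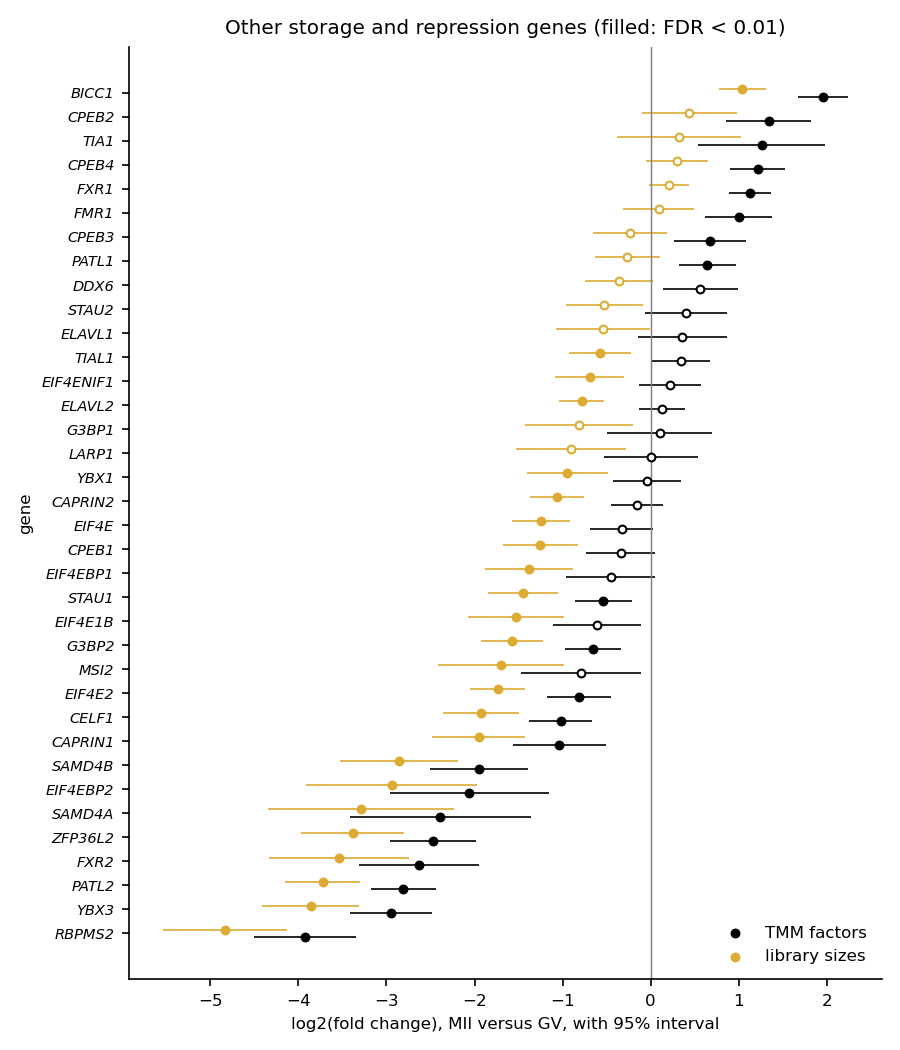
log2 fold change in MII versus GV, with 95% intervals, of 36 of the 37 tested genes of the wider storage and repression list, ordered by value, with TMM factors (black) and library sizes alone (yellow); filled points passed an FDR of 0.01. *RBPMS2*, *YBX3* and *PATL2* are lowest and *BICC1* is highest, and library sizes shift all values down.

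The 5 list genes not tested were at or near 0: *IGF2BP1* and *NANOS2* had no count, *NANOS1* and *NANOS3* at most 2.03 counts and *MSI1* at most 15.2 counts in a library.

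Among all genes with a symbol, those whose log2 CPM was most like each of the 9 over the 14 libraries were found by Pearson correlation, as a description. They were *GGT6* and *PIP4K2B* for *YBX2* (both 0.99), *STIMATE* and *ZNF821* for *ZAR1* (both 0.99), *HIKESHI* and *SEC11A* for *DAZL* (both 0.99), and *CDIPT* and *RNF220* for *LSM14A* (both 0.97). For *ZAR1L* they were *SLC35A2* (0.89) and *SGPP2* (0.86), for *IGF2BP3* *SPIRE1* (0.94) and *PPP4R2* (0.92), for *IGF2BP2* *TRIP13* (0.94) and *EN1* (0.92), for *PUM2* *NCAPG2* (0.92) and *MED23* (0.89), and for *LSM14B* *FGF7* (0.92) and *LEAP2* (0.90). After the group means were removed, the correlations were 0.63 and 0.70 for *ZAR1* and 0.85 to 0.95 for the other 8 genes. The correlated genes were picked on these same libraries, so high values are favoured by that choice.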

How the data were processed

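Oligo-dT primed cDNA of pooled oocytes was sequenced as single reads, so levels are those of polyadenylated RNA. The authors trimmed reads with AfterQC, quantified transcripts with Kallisto (version 0.43 in the submitters' processing notes) against the Ensembl Sscrofa11.1 cDNA set and deposited estimated counts and TPM per transcript, with effective lengths. They also deposited a gene table of estimated counts from tximport (lengthScaledTPM). Those counts are scaled by transcript length and library size and need not be whole. Columns were placed by equal totals. Transcripts were placed in genes by matching values, for 18540 genes holding at least 99.97% of the counts. Symbols came from an Ensembl ID table, and that of *DAZL* from the study's gene list. Coordinates are from RefSeq on the same assembly.

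The counts were filtered with filterByExpr (minimum count 10), TMM-scaled in edgeR 4.0.16 and fitted with limma-voom 3.58.1 as 1 model of 3 groups, with Benjamini-Hochberg adjustment (R 4.3.3). The FDR and fold thresholds follow the study's methods, which name lengthScaledTPM but no scaling between libraries. The study left out a GV sample with few reads, taken here as the GV library with the lowest total. Alternatives used edgeR's quasi-likelihood test and DESeq2 1.42.0 on rounded counts. The limma-voom fit, with and without the replicate block, edgeR and DESeq2 were tested on simulated data. The other alternatives were not, library sizes alone among them. The simulation raised and lowered equal numbers of genes in MII, so it does not test the choice of scaling. TPM ratios were compared by exact permutation over libraries (scipy), with a threshold of 0.05 on the adjusted p. The study describes 5 independent collections. The labels do not tie replicate numbers to them, so p-values measure the spread between these libraries, which differed by more than counting noise (chi-square 15.2 or more per gene in 30 pairs).

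The 9 genes and the lists were chosen with earlier results of these data known. Of the wider list, the text names *CPEB1*, *EIF4ENIF1*, *DDX6*, *YBX1*, *IGF2BP1*, *EIF4E1B* and the 3 largest rises and 3 largest falls in MII versus GV, and for each of the 9 genes the 2 most correlated genes. *CYP19A1* and *FOXL2* had no matching ID among the cumulus markers. A gene of the wider list is not reported here, though the list's counts and the adjustment over 15 ratio tests include it.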

Additional observations from a re-analysis of the deposited data

How the results depend on the processing

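In MII and ‘damaged’ versus GV, the falls of *YBX2* and *ZAR1* and the rise of *DAZL* kept their direction and call under each alternative computed: library sizes alone, edgeR, DESeq2, no filter, a filter of 10 CPM, all 5 GV libraries, each library left out, the replicate block, estimated counts summed per gene, MII and ‘damaged’ joined, and the 8 libraries with agreeing names, the last chosen after seeing the data. The filter of 10 CPM was applied before TMM scaling. It kept *YBX2* and *ZAR1* through their GV libraries and *DAZL* through the cultured ones, where each is high. Their calls under that filter are therefore no separate support. *LSM14A* lost its call only in the 8 libraries with agreeing names. Over the members' values versus GV, 388 pairs of a value and an alternative kept direction and side of the threshold, 14 lost a call, 16 gained one, 5 turned sign with a call in either fit, and 7 turned sign with none. In these numbers the fit of MII and ‘damaged’ joined was set against both comparisons, though it is 1 result. With library sizes alone, 1 of the 9 genes was higher and 7 lower in MII than in GV, 1 higher and 8 lower in ‘damaged’ oocytes, and 0 were DEGs on the higher side in either. Over all genes tested the counts were then 1447 higher and 7612 lower in MII and 1476 higher and 7404 lower in ‘damaged’ oocytes. On that scale the sign turned for *PUM2* (-0.43 in MII, -0.56 in ‘damaged’ oocytes), *IGF2BP3* (-0.64 and -0.68), *EIF4ENIF1* (-0.69 and -0.86), and, in ‘damaged’ oocytes, *ZAR1L* (-0.82) and *YBX1* (-0.73). The shift of all genes with that scaling is part of these values. A filter of 10 CPM, which tests fewer genes, gave 2890 genes lower in MII and 2839 lower in ‘damaged’ oocytes, left 1 of the 9 genes higher in MII and 0 DEGs on the higher side in ‘damaged’ oocytes. With that filter and TMM factors the sign also turned for *IGF2BP3* (-0.06 in MII, -0.12 in ‘damaged’ oocytes) and *EIF4ENIF1* (-0.10 and -0.30). It turned in ‘damaged’ oocytes for *PUM2* (-0.0026), *ZAR1L* (-0.26) and *YBX1* (-0.17). None of these turned values was called. With all 5 GV libraries or in the 8 libraries with agreeing names, 1 gene was higher in MII. The joined fit set MII and ‘damaged’ oocytes as 1 group against GV, so it is a single result, with 1 gene higher and 5 lower. *IGF2BP2* fell with the filter of 10 CPM (-0.82 in MII, -0.77 in ‘damaged’ oocytes). The filter kept it through GV, at 16.4 to 29.0 CPM without TMM factors, against 6.27 to 10.9 in MII and 7.27 to 9.36 in ‘damaged’ oocytes. *LSM14B*, which that filter leaves out, fell in ‘damaged’ oocytes by edgeR (-1.18, FDR 0.00982) and DESeq2 (-1.15, FDR 0.00943). The cause was not tested. Leaving out each library in turn gave 1 to 2 genes higher in MII, 0 to 1 DEGs on the higher side in MII and in ‘damaged’ oocytes, with 0 without GV replicate 5, and 3 to 4 lower. The adjusted p of the ratios that passed then lay between 0.0536 and 0.0765, over their threshold. With fewer libraries the smallest exact p is larger, and the adjustment is over all ratio tests.

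With the replicate block, 3784 genes were higher and 4570 lower in MII than in GV, 3797 and 4437 in ‘damaged’ oocytes and 0 between ‘damaged’ and MII oocytes, and the counts of the 9 genes did not change, while *EIF4E1B* fell in MII (-0.74, FDR 0.00439). The deviations of libraries with the same number had a median correlation of 0.07 over 13 pairs (-0.10 to 0.32, 3 of them over 0.1). For libraries with different numbers the median was -0.0092 over 52 pairs (-0.28 to 0.27, 3 of them over 0.1). The labels do not tie the numbers to collections, so the main fit did not take them as pairs, and whether they are pairs was not tested.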
